A study of Rattus norvegicus with 9 samples.

Results

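Rat whole blood incubated for 15 min with DNAgel was compared with rat whole blood incubated for 15 min with GS, gene by gene, in 6 of the 9 RNA-seq libraries of the study. DNAgel is a hydrogel of salmon sperm DNA crosslinked with poly(ethylene glycol) diacrylate, and GS is a commercial gelatin sponge. Each group had 3 libraries, and 3 further libraries of untreated blood (Control), for which no incubation time is given, serve as a background level beside each value. The blood was that of Sprague-Dawley rats, an outbred laboratory stock, with no gene alteration named, and the question of the comparison is which transcripts differ between blood that met the DNA gel and blood that met the sponge. All genes with an FPKM (fragments scaled for transcript length and library total) over 0.1 in at least 3 of the 9 libraries were included, which gave 3561 of the 12854 genes in the table. Whether the blood of the 3 libraries in each group was drawn from different rats is not stated in the labels or the methods. A p-value here thus reflects the spread among these libraries alone, and that spread may be technical.

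Each value is an average over the red cells, platelets and white cells of whole blood, so that fewer cells of a type and less RNA per cell cannot be told apart. White cells answer a stimulus within minutes by transcribing immediate-early genes, whose products are mostly short-lived transcription factors and their brakes, and whose mRNAs decay quickly. Unfolded proteins in the endoplasmic reticulum raise its chaperones through the unfolded protein response. Mature red cells and platelets have no nucleus and carry mRNA made in the bone marrow.

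Total estimated counts lay between 51838917 and 68076324 per library, and the 9 hemoglobin genes took 95.0% to 96.4% of them, which left 2344910 to 3216776 counts for all other genes. The hemoglobin share was 95.8% ± 0.349 (SD, n = 3) with DNAgel and 96.1% ± 0.248 with GS (p = 0.4, two-sided exact permutation test, which with 3 libraries a group cannot go below 0.1). Levels are given as TMM-normalized CPM, counts scaled to a common library total after levelling library composition, with no correction for gene length. In every library the most frequent count above 0 was 4, and the floor that a count of 0 allows was set at 3 such units over a group, which is 12 counts. This floor and all intervals on counts cover counting error only.

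Blood with DNAgel had 29 genes higher than blood with GS and 0 lower genes in edgeR's quasi-likelihood test, with 0.05 as the threshold on the Benjamini-Hochberg adjusted p. The 29 make up 0.814% of the 3561 genes tested, and the lower genes 0%. At an unadjusted p under 0.05 there were 213 higher genes (5.98%) and 123 lower genes (3.45%). DESeq2 called 53 genes higher and 10 lower, while limma, run on log2(FPKM + 0.1), called 24 and 3. The median log2 fold change of all tested genes was 0.03, with the 5 and 95 percentiles at −0.96 and 1.56. All 29 genes were low in abundance, with means from 0.246 to 10.5 CPM in the DNAgel group, and 10 of them had a mean FPKM of at least 1. The count was sensitive to single libraries. It was 8 without DNAgel replicate 1, 8 without DNAgel replicate 2 and 10 without GS replicate 1, and between 20 and 28 without any other library. With only the 6 libraries of these groups in the fit it was 7. Whichever of the 9 libraries was left out, 7 genes passed, among them Hspa5, Zfp36, Sat1, H3f3a, ENSRNOG00000067483 and ENSRNOG00000050647.

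**Figure D1:**
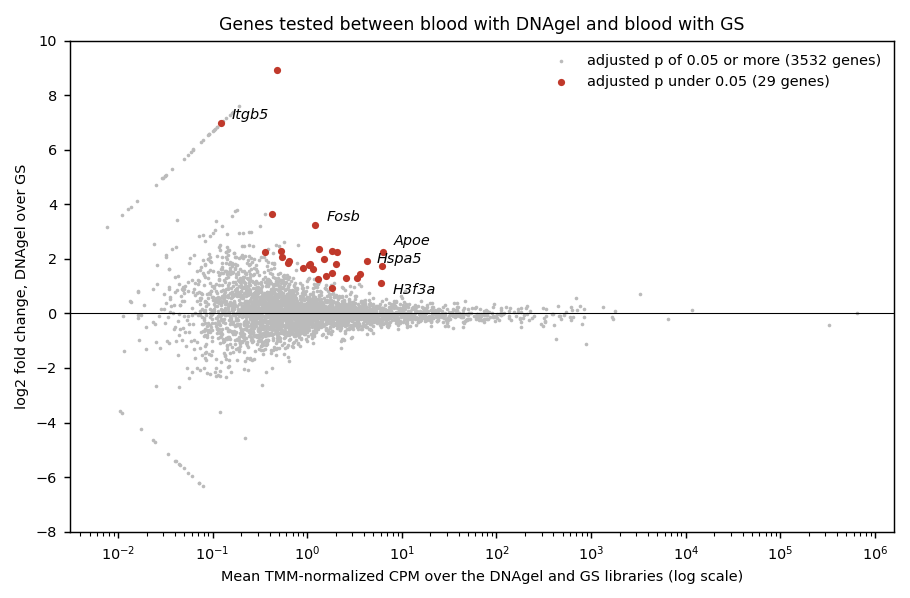
Log2 fold change of DNAgel over GS (vertical axis) against the mean TMM-normalized CPM of the 6 libraries on a log scale (horizontal axis) for the 3561 tested genes, with the 29 genes at an adjusted p under 0.05 in red and all others in grey. The red points lie above 0 in the left part of the axis, such as Apoe with a mean of 10.5 CPM in the DNAgel group, and the diagonal lines hold genes with no count in one of the groups, whose fitted fold change depends on the prior count.

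The untreated blood was near the DNAgel group for these genes. For each of the 29, every DNAgel library was above every GS library, which was so for 8.71% of all tested genes, and every Control library was above every GS library as well, which was so for 10.7% of all tested genes. The Control and DNAgel libraries overlapped for 24 of the 29. For the other 5 (H3f3a, Sat1, Cebpb and Klf6 among them) every DNAgel library was above every Control library, beside 10.2% of all tested genes whose Control and DNAgel libraries did not overlap in either direction. The median log2 ratio of group means over the 29 was 0.15 for DNAgel over Control and 1.65 for Control over GS, beside −0.01 and 0.04 over all tested genes. These ratios are given as levels without a test, and the 2 comparisons share their libraries with the one that chose the genes.

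Promoter sequences of RefSeq, from 250 bases before to 50 bases after the annotated start of a gene on build GRCr8, were found, by symbol and chromosome, for 16 of the 21 genes above the threshold that have a symbol other than a clone name. Fos and Jun had no promoter in that table, and its promoter of H3f3a belongs to the chromosome 13 entry, which did not pass. The promoters of Hspa5, Zfp36 and Klf6 are shown because they hold letters of elements known from stress and serum responses: the endoplasmic reticulum stress element (CCAAT and CCACG with 9 bases of any kind between them), through which the unfolded protein response drives chaperone genes, and the CArG box, the binding element of serum response factor at immediate-early genes. Capitals mark the element, and each sequence runs 5′ to 3′ in the direction of the gene.
Hspa5 (chr3:38452766-38453065, plus strand): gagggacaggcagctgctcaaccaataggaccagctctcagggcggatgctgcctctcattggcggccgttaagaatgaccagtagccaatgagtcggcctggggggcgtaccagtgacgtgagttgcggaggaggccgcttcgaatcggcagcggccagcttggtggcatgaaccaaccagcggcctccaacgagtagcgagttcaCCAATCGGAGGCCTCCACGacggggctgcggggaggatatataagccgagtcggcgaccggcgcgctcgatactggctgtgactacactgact
Zfp36 (chr1:92799059-92799358, minus strand): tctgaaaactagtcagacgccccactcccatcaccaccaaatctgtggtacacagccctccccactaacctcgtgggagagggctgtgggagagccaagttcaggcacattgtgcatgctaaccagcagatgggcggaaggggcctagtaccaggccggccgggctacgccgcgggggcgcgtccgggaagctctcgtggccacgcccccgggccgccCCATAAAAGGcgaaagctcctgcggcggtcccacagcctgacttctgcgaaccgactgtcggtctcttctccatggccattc
Klf6 (chr17:69458429-69458728, minus strand): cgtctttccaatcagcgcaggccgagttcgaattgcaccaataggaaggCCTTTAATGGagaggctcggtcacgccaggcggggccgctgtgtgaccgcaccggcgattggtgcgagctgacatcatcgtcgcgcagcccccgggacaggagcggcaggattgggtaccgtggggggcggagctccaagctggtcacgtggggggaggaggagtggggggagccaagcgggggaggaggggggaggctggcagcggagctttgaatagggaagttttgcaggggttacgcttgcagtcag

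Both strands were searched. The endoplasmic reticulum stress element was in 22 of 33469 rat promoters (0.0657%) and, among the 16 genes, in Hspa5 alone, where it began 43 bases before the start. The CArG box was in 548 promoters (1.64%) and in 3 of the 16 genes, which were Zfp36, Klf6 and Pitpna, at 32, 201 and 150 bases before the start. The AP-1 element TGANTCA, to which dimers of Fos and Jun proteins bind, was in 7.33% of promoters and in 0 of the 16 genes. The TATA box TATAAA was in 14.2% of promoters and in 2 of the 16. These matches describe letters in a window of 300 bases, and no binding was measured.

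Genes of transcription factors were among the 29. Fos, Fosb and Jun encode subunits of AP-1, Klf6 a zinc finger factor, Cebpb a factor of myeloid cells and acute inflammation, and Id2 an inhibitor of basic helix-loop-helix factors. Fosb had 2.02, 2.46 and 2.17 CPM in DNAgel replicates 1 to 3, 0.19, 0.484 and 0 in GS replicates 1 to 3, and 1.91, 1.83 and 2.23 in the Control. The GS libraries lay far below the other 6, which overlapped each other (adjusted p = 0.0377 in edgeR).

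Cebpb, on chromosome 3 from 156397052 to 156399473 (the table names no build), had 1.02, 0.965 and 0.648 CPM with DNAgel, 0.138, 0.234 and 0.16 with GS, and 0.458, 0.623 and 0.574 in the Control. It is one of the 5 genes whose DNAgel libraries were also all above the Control libraries, and it rose 4.88-fold over GS (2.29 on the log2 scale, standard error 0.41, adjusted p = 0.0178 in edgeR). Id2, on chromosome 6 from 41728946 to 41744400, had 0.765, 0.897 and 0.964 CPM with DNAgel, 0.19, 0.281 and 0.142 with GS, and 0.81, 0.667 and 1.14 in the Control. It rose 4.23-fold over GS (standard error 0.39 on the log2 scale, adjusted p = 0.0199 in edgeR). In Id2 the Control and DNAgel libraries overlapped and none of them reached down to the GS libraries. Klf6 had 2.42, 2.24 and 2.08 CPM with DNAgel and 0.0864, 0.874 and 0.338 with GS, so the GS libraries differed widely among themselves while the DNAgel libraries were close together. Calls of these genes depended on single libraries. Cebpb was lost without DNAgel replicate 1 or 2 or GS replicate 1 or 3 (highest adjusted p = 0.0887 in edgeR). Id2 was lost without any of the DNAgel replicates or GS replicate 1 or 3 (highest adjusted p = 0.109). Klf6 passed in 1 and Fosb in 2 of the 9 fits that left out a library, while Fos was lost without DNAgel replicate 2 or GS replicate 1 and Jun without DNAgel replicate 1 or 2 or GS replicate 1.

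Zfp36, Socs3 and Ifrd1 were also among the 29. Zfp36 encodes tristetraprolin, which binds short-lived inflammatory mRNAs and speeds their decay, Socs3 a feedback inhibitor of cytokine receptors, and Ifrd1 a transcriptional co-regulator. Zfp36, whose promoter is printed above, had 2.14, 2.91 and 2.23 CPM with DNAgel, 0.449, 0.749 and 0.604 with GS, and 2.19, 2.29 and 2.07 in the Control. The lowest of the 6 DNAgel and Control libraries was well above the highest GS library. Socs3 had 0.558, 0.559 and 0.663 CPM with DNAgel, 0.138, 0.0936 and 0.142 with GS, and 0.581, 0.71 and 0.882 in the Control, and Ifrd1 had 2.15, 1.81 and 1.28 with DNAgel, 0.397, 0.796 and 0.48 with GS, and 1.31, 1.68 and 1.16 in the Control. Ifrd1 rose 3.11-fold (standard error 0.33 on the log2 scale, adjusted p = 0.0361 in edgeR), and the adjusted p of Zfp36 was 0.00262. Zfp36 passed in all 9 fits that left out a library, Ifrd1 in 2 and Socs3 in 1.

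Of 36 genes of a list of immediate-early genes found in the table, 19 passed the filter on low values. Of these 5 were higher (Fos, Fosb, Jun, Klf6 and Zfp36), 0 were lower and the other 14 missed the threshold. The median log2 fold change of the 19 was 1.83, or 1.62 with Atf3 and Myc, both at 0 counts over the GS libraries, set to their lower bound, beside 0.03 over all tested genes. All 19 had a positive fold change, 14 had an unadjusted p under 0.05, and in 12 the DNAgel libraries were all above the GS libraries, beside 8.71% of all tested genes. Some of these genes could pass the filter only through the DNAgel and Control libraries, so the counts describe the list and support nothing about it. The summed level of the 19 was 27.2, 31.1 and 25.5 CPM in the DNAgel libraries, 8.22, 13.6 and 10.5 in the GS libraries and 28.5, 24.7 and 24.6 in the Control libraries. The number above the threshold was 1 without DNAgel replicate 2 or GS replicate 1, 2 without DNAgel replicate 1, 3 without DNAgel replicate 3 or any single Control library and 8 without GS replicate 2, while the median stayed between 1.47 and 2.14.

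Members of that list that did not pass are named for their values. Egr1, a zinc finger factor induced by serum, had 0.988, 1.85 and 1.27 CPM with DNAgel and 0.207, 0.64 and 0.409 with GS (adjusted p = 0.0853 in edgeR). Jund, the AP-1 subunit that is usually present before a stimulus, had 1.87, 1.59 and 2.03 CPM with DNAgel and 0.639, 0.671 and 1.14 with GS (1.17 on the log2 scale, adjusted p = 0.0925 in edgeR). Klf4, a factor that guides monocyte development, had 1.08, 1.83 and 1.16 CPM with DNAgel and 0, 0.546 and 0.142 with GS, with an adjusted p of 0.236 in edgeR. In these 3 genes the DNAgel and GS libraries did not overlap. Zfp36l1, a relative of Zfp36 that also promotes mRNA decay, had a value 1.20 higher with DNAgel on the log2 scale (adjusted p = 0.167 in edgeR), Zfp36l2 1.07 (adjusted p = 0.447) and Ier5, another immediate-early gene, 1.46 (adjusted p = 0.248). Nr4a2, an orphan nuclear receptor, had 0.526, 0.356 and 0.422 CPM with DNAgel and 0, 0.156 and 0 with GS. Its 10 counts over the GS group are under the floor. The ratio was 9.47 with a 95% counting interval from 2.30 to 83.6 (exact binomial, on counts divided by 4 and rounded, 20 with DNAgel and 2 with GS). The rounding moves this ratio, and the fit in edgeR, on counts that were not rounded so, gave 2.98 on the log2 scale.

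Hspa5, the chaperone also called BiP whose promoter holds the stress element above, had 7.40, 6.81 and 6.22 CPM with DNAgel, 1.02, 2.08 and 2.35 with GS, and 7.20, 7.84 and 5.80 in the Control (adjusted p = 0.00262 in edgeR). Of 16 tested chaperones and stress factors of the endoplasmic reticulum it was the only one that passed, beside 0.814% higher over all tested genes. The median of the 16 was 0.66, between 0.29 and 0.66 when single libraries were left out, beside 0.03 over all tested genes. A positive fold change was found in 12 of the 16, and the lowest value of the list was −2.15 on the log2 scale. Pdia3, a disulfide isomerase of glycoproteins, had 3.51, 3.59 and 2.44 CPM with DNAgel and 1.40, 1.84 and 1.71 with GS (log2 fold change 0.94, standard error 0.23, adjusted p = 0.111 in edgeR). Hsp90b1, the endoplasmic reticulum form of HSP90, had 0.813, 0.881 and 0.783 CPM with DNAgel and 0.415, 0.484 and 0.462 with GS (adjusted p = 0.329 in edgeR), and its Control libraries were above both. Calr, a calcium-binding chaperone and the most abundant of these, overlapped between the groups at 37.9 ± 6.26 CPM (SD, n = 3) with DNAgel and 34.4 ± 2.33 with GS. The stress element and the chaperone levels are set side by side here, and their relation was not tested.

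A pair of entries of the table on opposite strands of chromosome 20, from 3856006 to 3873240 and to 3873227, was also above the threshold. It lies beside Hspa1l, a gene of the HSP70 family, and the table gives neither of the pair a symbol. The plus-strand entry, ENSRNOG00000050647, carries KEGG pathways that include MAPK signaling, Spliceosome and Protein processing in endoplasmic reticulum. It had 3.24, 3.20 and 2.89 CPM with DNAgel, 0.76, 1.19 and 0.729 with GS, and 3.59, 3.20 and 4.31 in the Control (a 3.47-fold rise, standard error 0.24 on the log2 scale, adjusted p = 0.00262 in edgeR). The minus-strand entry had 1.63 ± 0.202 CPM with DNAgel and 0.471 ± 0.133 with GS (SD, n = 3), and was lost without DNAgel replicate 1 or 2 or GS replicate 1 or 3 (highest adjusted p = 0.088 in edgeR). The library kit marks the strand, but whether the counting used it is not given in the sources used here, so reads of the 2 entries cannot be told apart. Among 17 other tested heat shock proteins of the cytosol and mitochondria 0 passed in edgeR, 1 had an unadjusted p under 0.05 (Hspa8, a constitutive HSP70, with an adjusted p of 0.12), DESeq2 and the other alternatives called at most 1 higher, and the median was 0.10. An entry with a clone name, described in the table as ring finger protein 130, had 1.91, 2.00 and 1.14 CPM with DNAgel and 0.501, 0.421 and 0.498 with GS (adjusted p = 0.0183 in edgeR). It was lost without DNAgel replicate 1 or 2 or any GS replicate (highest adjusted p = 0.0905 in edgeR).

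**Figure D2:**
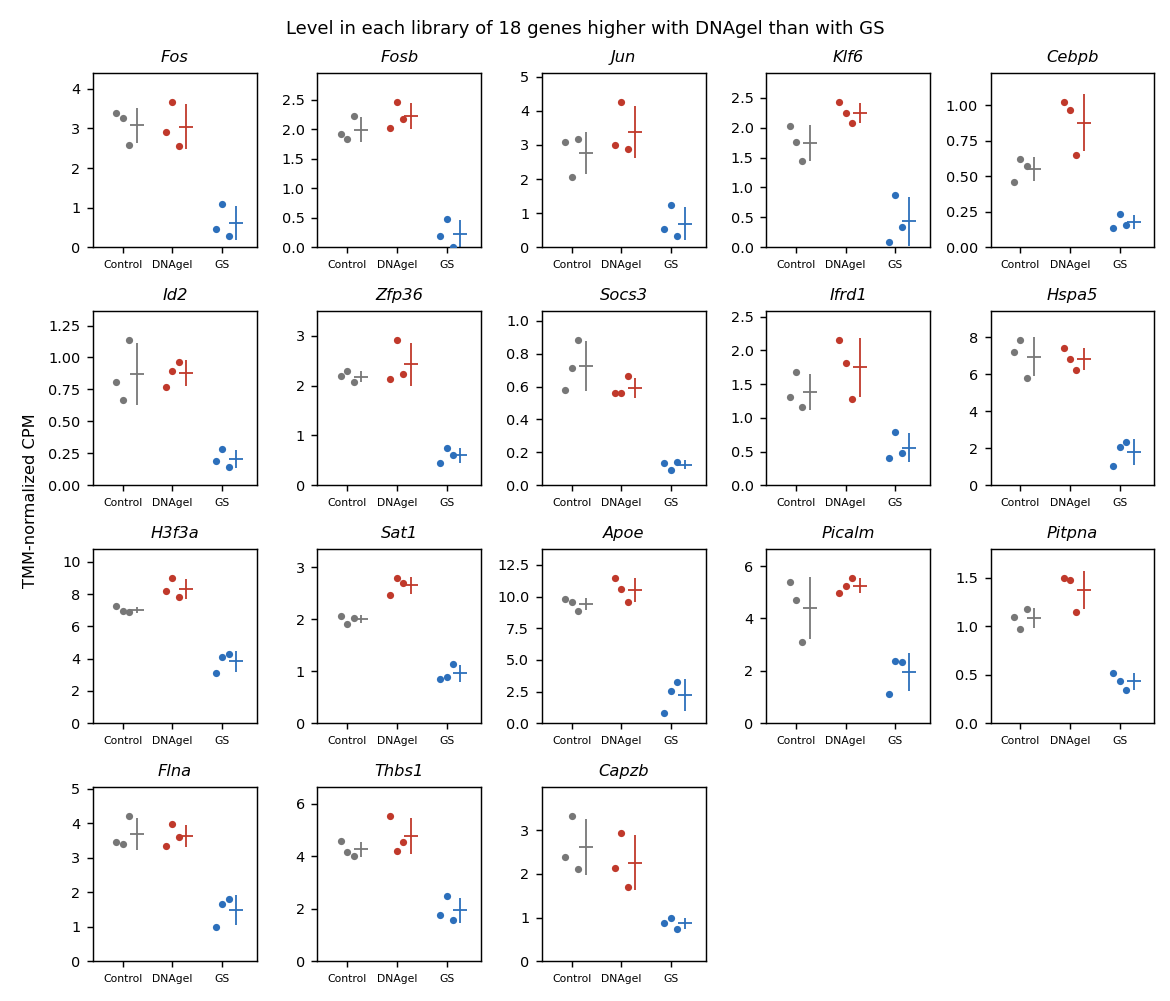
TMM-normalized CPM (vertical axis, from 0) of 18 genes above the threshold in each of the 3 Control (grey), DNAgel (red) and GS (blue) libraries, with the mean and SD of the 3 libraries as a bar beside the points. In every panel the 3 GS points lie below the 3 DNAgel and the 3 Control points, as for Hspa5, whose GS libraries lay between 1.02 and 2.35 CPM.

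Sat1 and H3f3a passed whichever library was left out. Sat1 encodes the enzyme that acetylates spermidine and spermine for export or breakdown. It had 2.47, 2.79 and 2.7 CPM with DNAgel, 0.846, 0.89 and 1.14 with GS, and 2.06, 1.91 and 2.03 in the Control, so that the 3 groups did not overlap (adjusted p = 0.00655 in edgeR). Of 19 tested genes of polyamines and oxidative stress Sat1 was the only one that passed, with a median of 0.18 over the list. Amd1, which makes the aminopropyl donor for polyamine synthesis, had lower values with DNAgel, at 1.32 ± 0.189 CPM against 2.24 ± 0.467 with GS (SD, n = 3), without overlap (−0.76 on the log2 scale, adjusted p = 0.341 in edgeR). H3f3a stands for histone H3.3, the form of H3 that is placed outside replication, and the table gives this symbol to 2 tested entries. The entry on chromosome 10, which is the one that passed, is described in the table as H3.3 histone B, so its symbol and description differ. It had 8.19, 8.99 and 7.79 CPM with DNAgel, 3.09, 4.12 and 4.30 with GS, and 7.26, 6.93 and 6.88 in the Control, with an adjusted p of 0.00552 in edgeR. The entry on chromosome 13, ENSRNOG00000003220, was far more abundant at 222 ± 23.3 CPM with DNAgel and 247 ± 5.88 with GS (−0.15 on the log2 scale, adjusted p = 0.811 in edgeR). Both carry 1 symbol though they may be separate genes, and how the counting split reads between the entries is uncertain. Of 8 tested histone genes 1 was higher, with a median of 0.45 over the list, and H2az1, another variant histone, had 2.47 ± 0.563 CPM against 1.61 ± 0.152 (adjusted p = 0.421 in edgeR).

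Apoe, Pitpna and Picalm are described side by side, as genes of lipids and membranes, with no list behind the grouping. Apoe, the apolipoprotein that macrophages secrete, was the most abundant of the 29, with 11.5, 10.6 and 9.57 CPM with DNAgel, 0.829, 2.54 and 3.27 with GS, and 9.79, 9.55 and 8.84 in the Control. Pitpna, on chromosome 10 from 60430748 to 60471342, encodes a protein that moves phosphatidylinositol between membranes, and had 1.5, 1.47 and 1.14 CPM with DNAgel, 0.518, 0.437 and 0.338 with GS, and 1.10, 0.971 and 1.18 in the Control. Picalm, on chromosome 1 from 144056721 to 144137557, encodes an adaptor that helps clathrin coats form, and had 4.97, 5.23 and 5.54 CPM with DNAgel, 1.11, 2.39 and 2.33 with GS, and 5.41, 4.69 and 3.11 in the Control. In all 3 genes the GS libraries were apart from the rest. Pitpna rose 3.17-fold (standard error 0.30 on the log2 scale, adjusted p = 0.0184) and Picalm 2.7-fold (standard error 0.28, adjusted p = 0.0268), both in edgeR. Apoe was lost without DNAgel replicate 1 or 2 (highest adjusted p = 0.09), Pitpna without DNAgel replicate 1 or 2 or any GS replicate (0.0887), and Picalm without 6 of the 9 libraries (0.113), all in edgeR.

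Flna, Capzb, Itgb5 and Thbs1 were also among the 29, and the first pair belongs to the list of actin genes given after them. Flna crosslinks actin filaments and ties them to membrane receptors, Capzb caps the growing ends of actin filaments, Itgb5 is the beta subunit of a vitronectin-binding integrin, and Thbs1 is a matrix glycoprotein of platelet granules. Flna had 3.33, 3.96 and 3.60 CPM with DNAgel, 0.985, 1.65 and 1.81 with GS, and 3.45, 3.39 and 4.21 in the Control. Thbs1 had 5.53, 4.20 and 4.53 CPM with DNAgel, 1.74, 2.48 and 1.56 with GS, and 4.57, 4.17 and 4.02 in the Control. Both genes had Control and DNAgel libraries that overlapped above all GS libraries. Capzb, on chromosome 5 from 151434871 to 151535409, had 2.14, 2.95 and 1.70 CPM with DNAgel, 0.881, 0.983 and 0.729 with GS, and 2.40, 3.33 and 2.12 in the Control, a 2.61-fold rise over GS (standard error 0.28 on the log2 scale, adjusted p = 0.0351 in edgeR). Within the Control and DNAgel groups Capzb varied more between libraries than within the GS group. Itgb5 was at 0 in all 3 GS libraries and at 0.159, 0.322 and 0.256 CPM with DNAgel, at least 3.63-fold higher, with the GS group set at its floor (adjusted p = 0.0495 in edgeR), and passed in 0 of the 9 fits that left out a library. Thbs1 was lost without DNAgel replicate 1 or GS replicate 1, Flna without any DNAgel replicate or GS replicate 1, and Capzb in 7 of the 9 (highest adjusted p = 0.0829, 0.0903 and 0.174 in edgeR).

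Of 37 tested genes of the actin cytoskeleton and adhesion, 2 were higher (Capzb and Flna), 0 were lower and 35 did not pass in edgeR, with a median of 0.22, while DESeq2 called 2 lower (Actb and Lasp1). Capza2, the partner of Capzb in the capping protein, had 4.30, 3.30 and 3.27 CPM with DNAgel and 2.02, 2.37 and 1.92 with GS (log2 fold change 0.78, standard error 0.19, adjusted p = 0.109 in edgeR). Lcp1, an actin-bundling protein of white cells, had 2.42, 2.30 and 1.60 CPM with DNAgel and 0.864, 0.874 and 1.33 with GS (adjusted p = 0.151 in edgeR). Cfl1, which severs actin filaments, had 5.82 ± 1.15 CPM with DNAgel and 3.97 ± 0.611 with GS (SD, n = 3), with an adjusted p of 0.33 in edgeR and overlapping libraries. Coro1a, an actin-binding protein of white cells, overlapped as well (log2 fold change 0.96, adjusted p = 0.352 in edgeR). Beta-actin and Lasp1 had values in the other direction and are given with the lower genes.

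Other genes among the 29 have no symbol or a clone name, and several are copies of multigene families whose reads the counting could split. ENSRNOG00000067483, annotated with ferric iron binding, had 0.845, 0.931 and 1.07 CPM with DNAgel, 0 in all GS libraries, and 0.733, 1.03 and 0.761 in the Control, at least 14.1-fold higher with the GS group set at its floor (adjusted p = 0.00024 in edgeR). An unnamed gene on chromosome X annotated to the ribosome had 1.81 ± 0.213 CPM with DNAgel and 0.761 ± 0.0847 with GS (SD, n = 3). A ribosomal protein S12-like entry had 1.03 ± 0.355 and 0.268 ± 0.0981 CPM. An unnamed gene on chromosome 5 annotated with glyceraldehyde-3-phosphate dehydrogenase activity had 2.41 ± 0.0503 CPM with DNAgel and 1.26 ± 0.0699 with GS (log2 fold change 0.94, adjusted p = 0.0495 in edgeR), the smallest change among the 29, and passed, like the unnamed ribosomal entry, in 0 of the 9 fits that left out a library. The S12-like entry passed in 1 of them. Gapdh itself, the glycolytic enzyme, had values in the other direction, at 12 ± 1.16 and 16.2 ± 1.24 CPM (log2 fold change −0.44, adjusted p = 0.252 in edgeR), and which of these reads belong to which copy is uncertain.

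Of 18 tested monocyte and macrophage genes 2 were higher, Apoe among them, 0 were lower and 16 did not pass, with a median log2 fold change of 0.72 and 13 positive values. The summed level of the 18 was 161 to 163 CPM in the DNAgel libraries, 128 to 149 in the GS libraries and 139 to 170 in the Control libraries. The 5 members with the highest means differed among themselves. Ctsd, a lysosomal protease, had 62.2 ± 9.17 CPM with DNAgel and 62.7 ± 6.50 with GS (SD, n = 3), and Lyz2, lysozyme, 11.7 ± 2.20 and 11.7 ± 0.727. Ctsb had 65.8 ± 8.20 and 55.2 ± 5.74 CPM with overlapping libraries, while Psap (4.14 ± 1.27 and 2.09 ± 0.469) and Apoe (10.5 ± 0.948 and 2.21 ± 1.25) had DNAgel libraries all above the GS libraries, and only Apoe of the 5 passed. Csf1r, the receptor that keeps monocytes alive, had 0.94, 0.728 and 0.723 CPM with DNAgel and 0, 0 and 0.427 with GS (adjusted p = 0.448 in edgeR). Itgax, Tyrobp and Ctss went the other way, at −0.58, −0.74 and −0.69 on the log2 scale (adjusted p = 0.701, 0.758 and 0.870 in edgeR). In 8 of the 18 genes every DNAgel library was above every GS library, and in 1, Itgax, below. Over all tested genes these shares were 8.71% and 5.95%. When single libraries were left out, the median of this list lay between 0.40 and 1, and its count of higher genes was 0 without DNAgel replicate 1 or 2, 3 without GS replicate 2 and 2 otherwise. The part of monocyte numbers in the 29 calls was not tested. Of 11 tested genes of inflammatory signaling 1 was higher (Socs3) with a median of 0.71. Nfkbia and Nfkbiz, inhibitors of NF-kappa B, had values 1.05 and 2.10 higher on the log2 scale (adjusted p = 0.449 and 0.435 in edgeR), with DNAgel libraries all above GS libraries.

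Lysosomal genes gave no call at the threshold. Among 24 tested genes of the lysosome and phagosome 0 passed in edgeR, 6 had a higher and 0 a lower value at an unadjusted p under 0.05, the alternatives called at most 1 higher, and the median was 0.46. Psap, the precursor of the saposins that help degrade sphingolipids, had 3.54, 5.60 and 3.28 CPM with DNAgel and 1.61, 2.54 and 2.12 with GS (log2 fold change 0.99, standard error 0.24, adjusted p = 0.111 in edgeR). The cysteine proteases Lgmn (log2 fold change 1.32, adjusted p = 0.34), Ctsc (1.21, adjusted p = 0.305) and Ctsz (2.46, adjusted p = 0.443) had higher values without overlap, as did Hexa, a subunit of hexosaminidase (0.49, adjusted p = 0.461), all in edgeR. Of the 24 genes, 7 had DNAgel libraries all above the GS libraries, beside 8.71% of all tested genes. In 1, Atp6v1b2 (−0.57, adjusted p = 0.875 in edgeR), they were all below, beside 5.95%. Ctss also had a lower value (−0.69, adjusted p = 0.870 in edgeR), with overlap. Ctsb, cathepsin B, had the overlapping values given above.

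RNA-binding proteins of splicing had an unadjusted p under 0.05 in 5 higher and 1 lower of 26 tested genes, beside 5.98% and 3.45% of all tested genes. At the threshold 0 passed in edgeR and at most 1 was called higher in any alternative, with a median of 0.23. In 7 of the 26 every DNAgel library was above every GS library, and in 2 below, beside 8.71% and 5.95% of all tested genes. The lowest value of the list was −0.92 on the log2 scale. Srsf11, a serine- and arginine-rich splicing factor, had 0.909, 1.24 and 1.31 CPM with DNAgel and 0.311, 0.265 and 0.569 with GS (log2 fold change 1.59, standard error 0.36, adjusted p = 0.0691 in edgeR). Hnrnpf and Hnrnpdl, proteins that coat nascent RNA, had values 0.63 and 1.13 higher on the log2 scale (adjusted p = 0.246 and 0.262 in edgeR) with no overlap between the libraries. Among genes with a mean FPKM of at least 1 and no overlap between the groups, others with a low p that did not pass were Ptma, Bag6, Ddx5, Serp1, the clone-named AABR07054189.1, S100a6 and Mt-nd6, whose differences were 0.71, 0.56, 0.46, 0.86, 0.40, 0.93 and 0.98 on the log2 scale, with adjusted p from 0.209 to 0.406 in edgeR. Ptma is a small acidic nuclear protein, Bag6 a chaperone of membrane proteins, Ddx5 an RNA helicase and S100a6 a calcium-binding protein.

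**Figure D3:**
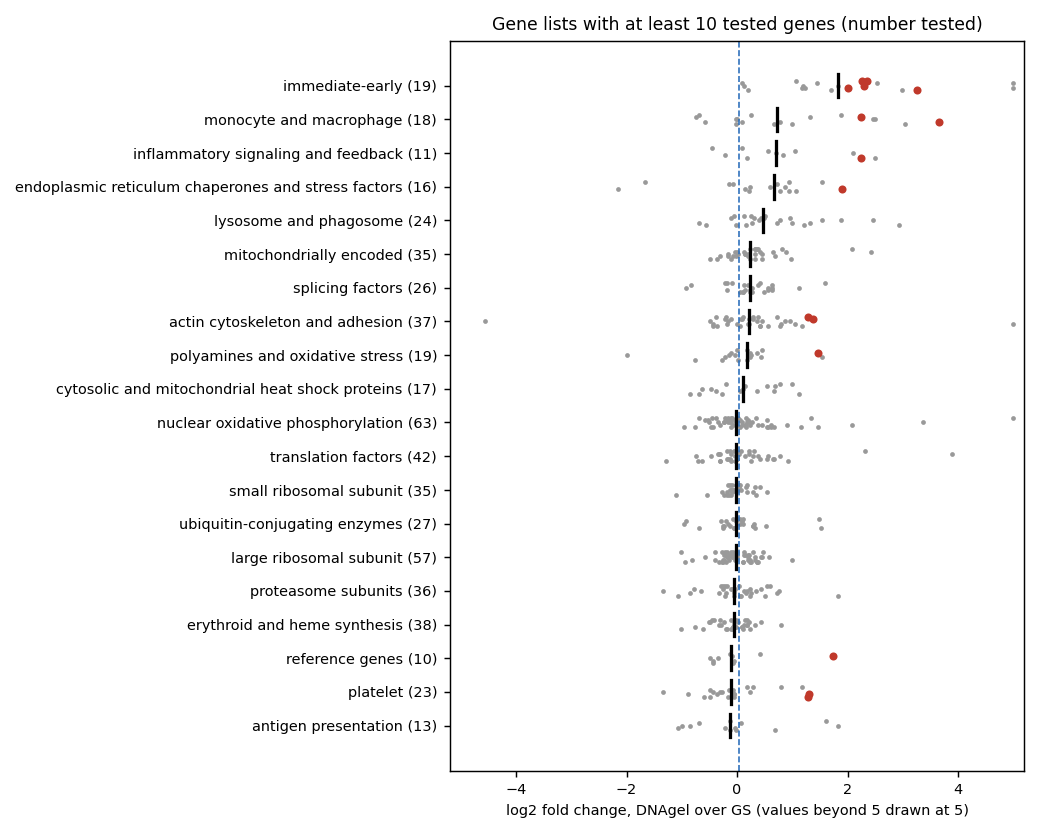
Log2 fold change of DNAgel over GS (horizontal axis) of each tested gene in the 20 lists with at least 10 tested genes, with genes above the threshold in red, the median of each list as a black bar and the median of all tested genes as a dashed line (values beyond 5 are drawn at 5). The immediate-early list has the highest median, 1.83, and lists of ribosomal, proteasome, erythroid and platelet genes have medians close to the dashed line.

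No gene was lower with DNAgel at an adjusted p under 0.05 in edgeR, while 123 were lower at an unadjusted p under 0.05, and in 212 genes, or 5.95% of those tested, every DNAgel library was below every GS library. The lowest adjusted p on that side was 0.0853, for Ociad1, a protein of endosomes and mitochondria, with 0.191, 0.305 and 0.392 CPM with DNAgel and 0.864, 0.999 and 1.14 with GS. DESeq2 called Ociad1 among its 10 lower genes. Furin, the protease that cuts many proproteins in the secretory pathway, had 8.02, 6.65 and 7.46 CPM with DNAgel, 11.4, 9.96 and 11.6 with GS, and 13.1, 12.2 and 11.2 in the Control. Its DNAgel libraries were below all other libraries, with a log2 fold change of −0.57 against GS (standard error 0.14, adjusted p = 0.102 in edgeR, 0.011 in DESeq2). Bpgm, the red cell enzyme that makes the effector of oxygen release, had 333, 354 and 364 CPM with DNAgel, 453, 481 and 466 with GS, and 423, 434 and 403 in the Control (log2 fold change −0.41, standard error 0.11, adjusted p = 0.167 in edgeR and 0.000156 in DESeq2). Bpgm libraries of the 3 groups did not overlap, with the DNAgel group lowest.

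Actb, beta-actin, had 40.3, 32.4 and 38.4 CPM with DNAgel, 53.3, 44.3 and 58.1 with GS, and 58.7, 60.5 and 54.6 in the Control, and Ranbp10, a scaffold that binds microtubules in platelets and red cell precursors, had 20.7, 25.9 and 24.6, 32.8, 29.5 and 36.0, and 26.5, 30.5 and 29.0. In both the Control libraries were above the DNAgel libraries (adjusted p = 0.178 for Actb and 0.167 for Ranbp10 in edgeR, 0.0334 and 0.0301 in DESeq2). Timm23, a channel of protein import into mitochondria, had 2.52, 1.54 and 2.02 CPM with DNAgel, 3.70, 3.36 and 4.23 with GS, and 1.60, 2.12 and 1.78 in the Control, so that here the GS group stood apart above the others (log2 fold change −0.89, adjusted p = 0.122 in edgeR and 0.0352 in DESeq2). Car1, a red cell carbonic anhydrase, had the same order, with 3.05 ± 0.23 CPM with DNAgel, 4.51 ± 0.351 with GS and 3.17 ± 0.317 in the Control (SD, n = 3). The other genes of this set were Hba-a2, the entry of Rpl9 on chromosome 3, Fgl2 and Cops3, whose differences were −0.41, −1.02, −0.50 and −0.59 on the log2 scale, with adjusted p from 0.193 to 0.252 in edgeR. Hba-a2 encodes alpha-globin, Rpl9 a ribosomal protein with 3 tested entries in the table, Fgl2 a prothrombinase of the fibrinogen family, and Cops3 a subunit of the COP9 signalosome. Lasp1, an adaptor of the actin cytoskeleton chosen after its values were seen, had 3 counts over the DNAgel group, under the floor, and 75 over the GS group. The ratio of GS over DNAgel was 20.1 with a 95% counting interval from 3.19 to 833 (on counts divided by 4 and rounded, 1 with DNAgel and 19 with GS). Its adjusted p was 0.108 in edgeR, 0.0111 in edgeR with no filter and 0.0064 in DESeq2.

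**Figure D4:**
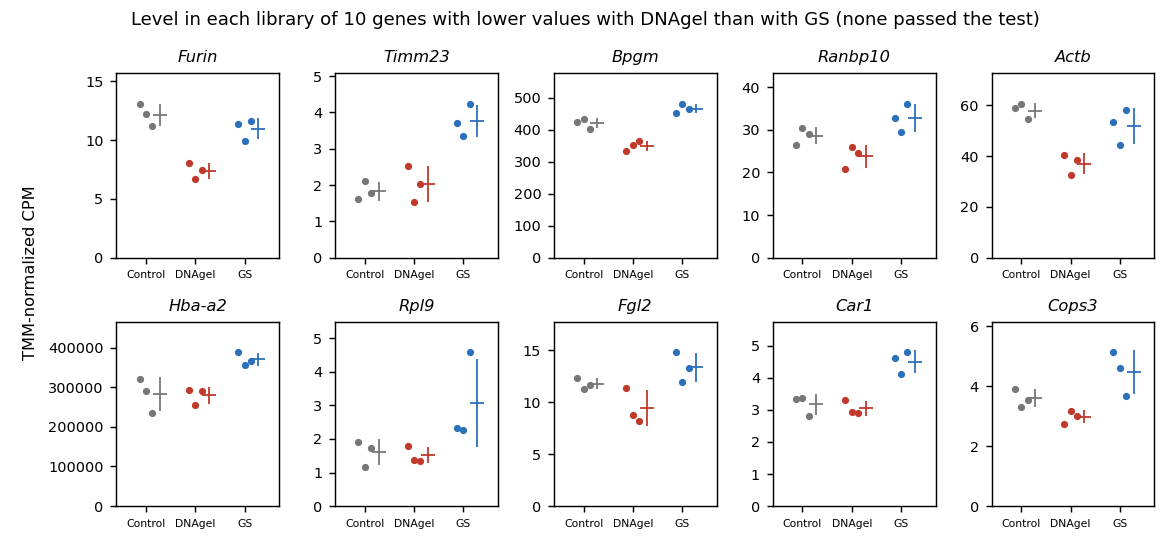
TMM-normalized CPM (vertical axis, from 0) of the 10 genes with the lowest p among those whose DNAgel libraries were all below the GS libraries at a mean FPKM of at least 1, in each Control (grey), DNAgel (red) and GS (blue) library, with the mean and SD of the 3 libraries as a bar beside the points. None of the 10 passed in edgeR while DESeq2 called 5 of them lower, and for Furin the DNAgel libraries (6.65 to 8.02 CPM) lie below both other groups.

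Red cell genes were tested in a list of 38, of which 0 were higher and 0 lower in edgeR. An unadjusted p under 0.05 was found for 0 higher and 9 lower genes, beside 5.98% and 3.45% of all tested genes. DESeq2 called 1 lower (Bpgm), and the median was −0.06. In 1 of the 38 every DNAgel library was above every GS library, and in 9 below, beside 8.71% and 5.95% of all tested genes. The summed level of the 38 was 4158 to 4665 CPM in the DNAgel libraries, 4972 to 5475 in the GS libraries and 4469 to 4927 in the Control libraries. Alas2, the largest part of that sum, had a mean of 1607 CPM with DNAgel and 1837 with GS (adjusted p = 0.701 in edgeR). Fech, the last enzyme of heme synthesis, had 151 ± 34.4 CPM with DNAgel and 213 ± 37.5 with GS (SD, n = 3), Gpx1, a peroxidase of red cells, 262 ± 52.8 and 361 ± 33.4, and Fam210b, a mitochondrial protein of erythroid iron use, 4.97 ± 0.918 and 7.06 ± 1.07, with adjusted p of 0.352, 0.401 and 0.352 in edgeR. Tent5c, an RNA poly(A) polymerase, and Urod, an enzyme of heme synthesis, had differences of −0.32 and −0.30 on the log2 scale (adjusted p = 0.468 and 0.509 in edgeR). Of 8 tested hemoglobin genes 0 passed in edgeR, 1 (Hba-a2) was lower at an unadjusted p under 0.05, and the median was −0.16. Limma on log2(FPKM + 0.1) and + 0.01, edgeR with no filter and edgeR with library totals alone called Hba-a2 lower, and the other alternatives did not.

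Platelet genes were 23 in number, with 2 higher (Flna and Thbs1, both also made by other blood cells), 0 lower in edgeR, 1 lower in DESeq2 (Mmrn1, a granule protein) and a median of −0.12. Of the 23, 7 had a positive fold change. Clec1b, Plek, Rgs18 and Gp6, the 4 with the lowest p at a mean FPKM of at least 1, had lower values with DNAgel. Their differences were −0.27, −0.44, −0.37 and −0.49 on the log2 scale, with adjusted p from 0.679 to 0.737 in edgeR. The summed level of the platelet genes overlapped, at 344 to 380 CPM with DNAgel and 323 to 429 with GS. Of 4 tested neutrophil genes 0 passed and all 4 had positive fold changes with a median of 0.36, among them S100a8 (2.85 ± 0.382 against 2.25 ± 0.326 CPM) and S100a9 (8.33 ± 0.312 against 7.07 ± 1.22). Lymphocyte markers were low, with 0 calls in each list, and had summed levels of 1.19 to 1.95 CPM with DNAgel and 1.16 to 1.74 with GS for 6 T cell genes, 0.708 to 2.08 and 0.881 to 1.69 for 4 B cell genes, and 1.43 to 2.93 and 2.50 to 2.68 for 7 genes of NK and cytotoxic cells. The only tested gene of endothelium and stroma, Col3a1, a fibrillar collagen, had 0.701, 0.728 and 0.663 CPM with DNAgel, 0.138, 0 and 0.444 with GS, and 0.55, 0.536 and 0.334 in the Control (adjusted p = 0.461 in edgeR). Of the coagulation list 4 genes, of the eosinophil and basophil list 1, and of a list of 10 genes taken from the study, headed by F5 and Plcg2, 2 (Dennd4a and Cyth2) were tested. Their medians were −0.18, −0.08 and 0.10, and 0 of these genes were called by edgeR or as higher by any alternative. At an unadjusted p under 0.05, 1 coagulation gene was lower and 0 of the other 3 genes passed. The study reported F5 and Plcg2, among other genes, as higher with DNAgel than with GS. It also reported more Plcg2 by qPCR and western blot in platelets treated with DNAgel. Neither F5 nor Plcg2 was among the genes tested here, so the median of 0.10 says nothing about them. The T cell, B cell and NK lists had medians of 0.05, 0.24 and −0.28, with 0 genes at an unadjusted p under 0.05.

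Of 10 tested reference genes 1 was higher and 0 lower in edgeR, DESeq2 called Actb lower, the median was −0.11, and an unadjusted p under 0.05 was found for 1 higher and 2 lower genes. The following groups of genes that most cells use gave 0 calls in edgeR. Of 57 tested genes of the large ribosomal subunit 2 higher and 3 lower genes had an unadjusted p under 0.05, and of 35 of the small subunit 1 and 1, with medians of −0.02 each. Rplp2, a stalk protein of the large subunit, had 18.6 ± 2.48 CPM with DNAgel and 13.6 ± 2.60 with GS (SD, n = 3, adjusted p = 0.305 in edgeR). Lower values were found for the Rpl9 entries ENSRNOG00000030476 and ENSRNOG00000028449 and for Rpl14. Their differences were −1.02, −0.95 and −0.59 on the log2 scale (adjusted p = 0.213, 0.333 and 0.337 in edgeR). Of 36 proteasome subunits 1 higher and 0 lower genes had such a p, with a median of −0.05. Among 27 ubiquitin-conjugating enzymes 0 were higher and 1 lower at that level, with a median of −0.02, and DESeq2 called Ube2h, one of them, lower. Of 42 translation factors 2 were higher and 2 lower, with a median of −0.02. Eef2, the elongation factor that moves the ribosome, had 12 ± 1.48 CPM with DNAgel and 9.05 ± 1.32 with GS (adjusted p = 0.447 in edgeR). Eif1, another of the 42, had a lower value with DNAgel, at −0.32 on the log2 scale (adjusted p = 0.402 in edgeR). Of 63 nuclear genes of oxidative phosphorylation 3 were higher and 1 lower, with a median of −0.01, and of 35 mitochondrially encoded genes 1 and 0, with a median of 0.23. Antigen presentation (13 genes, median −0.12) had 1 higher and 0 lower, and the interferon response with DNA sensing (8 genes, median −0.01) had 0 of each. In these lists the alternatives called 0 genes higher, except for translation factors, where they called at most 1.

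The KEGG column of the table, available for 1558 of the tested genes, was used for 43 pathways, chosen by name for blood, stress and housekeeping out of 219 with at least 10 tested genes. No gene was called in 20 of them, among them Ribosome (125 tested genes), Oxidative phosphorylation (89), Lysosome (46), Platelet activation (42) and Proteasome (39). Among the 43, the most called genes in a pathway were 4, in Focal adhesion (Flna, Itgb5, Jun and Thbs1 of 48 tested), IL-17 signaling (Cebpb, Fos, Fosb and Jun of 21), MAPK signaling (Flna, Fos, Jun and ENSRNOG00000050647 of 57), Osteoclast differentiation (Fos, Fosb, Jun and Socs3 of 30) and TNF signaling (Cebpb, Fos, Jun and Socs3 of 22). Over all 3561 tested genes 29 (0.814%) were higher. These pathways share their called genes: 13 of the 29 accounted for all calls, Jun stood in 12 pathways and Fos in 9. The highest median of the 43, 0.75, was that of Osteoclast differentiation, where 24 of 30 genes had a positive fold change. NF-kappa B signaling had 0 calls, 16 of 17 positive values and a median of 0.50. The median over all tested genes was 0.03. The lowest median of the 43 was −0.20, that of Glutathione metabolism, where 0 of 18 genes passed and 2 were lower at an unadjusted p under 0.05. Over all 219 pathways the medians ran from −0.27, in Metabolism of xenobiotics by cytochrome P450, to 1.03, in TGF-beta signaling (12 tested genes, 2 called), and 1 further pathway, Kaposi sarcoma-associated herpesvirus infection, held 4 called genes. Protein processing in endoplasmic reticulum held 84 tested genes with 2 called (Hspa5 and ENSRNOG00000050647) and a median of 0.09.

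GO terms were read for 2824 of the tested genes. The GO entries of another 432 tested genes, 13 of the 29 called genes among them, were not used here, so that counts by term are partial. With that limit, 900 tested genes carried the term nucleus and 6 of them were higher, among them Fosb, H3f3a, Ifrd1, Klf6 and Pitpna. Over all 3561 tested genes 29 (0.814%) were higher, but 13 of these 29 could not be counted under any term. The count for nucleus and that share therefore cover unlike sets of genes, and no result is read from setting them side by side. DNA-binding transcription factor activity was carried by 23 tested genes, of which 3 were higher, among them Fosb and Klf6. Of 38 terms described 29 held no called gene.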

How the data were processed

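RNA of rat blood was sequenced from poly(A)-selected libraries, 3 each of Control, DNAgel and GS. Per gene, the authors deposited estimated counts as whole numbers, and FPKM, which the authors deposited beside them, is scaled for transcript length and library total. The submitters' processing notes list StringTie 1.3.4d, HISAT2 2.0.4 and cutadapt 1.9 as well as edgeR, DESeq2 and UMI-tools, without their roles, and a mouse build, while the table holds rat genes, so coordinates are as the table gives them. Total counts and the other depth values stand in the report. FPKM served as the filter (over 0.1 in at least 3 libraries), and the counts were tested with edgeR 4.0.16 in R 4.3.3 (TMM, robust quasi-likelihood, all 9 libraries in 1 fit, contrast DNAgel minus GS, Benjamini-Hochberg adjustment over 3561 genes). Standard errors were obtained from the log2 fold change and the root of its F statistic. The script was tested on simulated data. Alternatives were DESeq2 1.42.0, limma 3.58.1 on log2(FPKM + 0.1), + 0.01 and + 1, a filter on a mean FPKM of at least 1 or none, other scalings, only the 6 libraries, a replicate block, counts divided by 4, and 9 fits without 1 library each.

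The comparison, its gene lists (31, written by hand or matched by symbol pattern) and the tests were chosen with earlier results of these data known. Genes could be named if they passed and had a symbol, if they were among the 10 lowest p on either side with a mean FPKM of at least 1 and no overlap, if they were among the 4 lowest p of a list with a mean FPKM of at least 1, if they were among the 5 most abundant, or if the study's text names them. Not every gene that met one of these rules is named. Other genes were chosen after their values were seen, among them Egr1, Jund, Zfp36l1, Zfp36l2, Klf4, Ier5, Nr4a2, Atf3, Myc, Pdia3, Hsp90b1, Amd1, Lcp1, Lasp1, Lgmn, Ctsc, Ctsz, Ctss, Hexa, Atp6v1b2, Csf1r, Itgax, Tyrobp, Lyz2, Nfkbia, Nfkbiz, Srsf11, Hnrnpf, Hnrnpdl, Ociad1, Tent5c, Urod and Col3a1. Lists were described by counts and medians without a set test. Promoters were matched to RefSeq by symbol and chromosome. GO entries of 432 tested genes were not used here. Some genes above the threshold are not reported here.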

Additional observations from a re-analysis of the deposited data

How the results depend on the processing

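The 29 higher genes became 53 with DESeq2, 45 with no filter, 14 with limma on log2(FPKM + 1), 10 with a mean FPKM of at least 1 (where 10 of the 29 could be tested) and 7 with only the 6 libraries of the 2 groups. Leaving out 1 library gave 8 to 28 higher genes. With a replicate block 14 genes were higher, all of them among the 29. Whether same-numbered libraries are pairs is not stated. Correlations of same-numbered deviations were −0.0144, 0.0328 and −0.0673 for DNAgel and GS, 0.202, 0.14 and 0.0911 for Control and GS, and 0.0349, −0.0746 and −0.236 for Control and DNAgel. Those of libraries with different numbers ran from −0.262 to 0.239, −0.182 to 0.0627 and −0.206 to 0.285 in the same order. Pairing was not tested. The other alternatives called 23 to 32. Of the 29, DESeq2 called 29, no filter 27 and limma on log2(FPKM + 0.1) 22, and 6 passed under each alternative that tested them. The 0 lower genes became 10 with DESeq2, 3, 2 and 2 with limma on log2(FPKM + 0.1), + 0.01 and + 1, 5 with no filter, 1 with library totals alone and 1 with counts divided by 4, and 0 to 1 without 1 library. The 2 genes at the cutoffs of the study (2 on the log2 scale in either direction, with 0.01 for the adjusted p) became 17 with DESeq2, 12 with no filter, 8 with counts divided by 4, and 1 with limma on log2(FPKM + 0.1) or + 1, a mean FPKM of at least 1, DESeq2 size factors in edgeR, or only the 6 libraries. Leaving out 1 library gave 1 to 7. The cause of these shifts was not tested, except that fewer samples or genes enter where a library or low genes are left out. Scaling by library totals alone moved the median of all genes from 0.03 to 0.15. Hemoglobin took 95.0% to 96.4% of the counts, which limits the depth left for all other genes.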
